A study of Mus musculus with 16 samples.

Results

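The 31 genes described here are general markers and working parts of macrophages and other myeloid cells, and they were followed in the aortic valves of hypertensive and hypercholesterolaemic mice. They were picked by name as genes of myeloid identity and function, with no measured value in the rule, from a deposited table that has 20992 genes. All 31 have a named entry, and all 31 passed the filter on low values together with 15004 genes in total. The table writes symbols in capitals (CD68, LYZ2, CLEC7A), given here in the usual mouse spelling. RNA-seq was made from the valves of C57BL/6J mice in 15 libraries, each taken here as 1 mouse. The 4 control mice (CON) carried neither alteration. The 4 hypertensive mice (HT) carried transgenes for human renin and human angiotensinogen, the 4 hypercholesterolaemic mice (HC) lacked ApoE, and the 3 HC/HT mice had both. A further HC/HT mouse was not analysed here. CON held 1 female, HT 2, HC 3 and HC/HT 2, and the other mice were male. The ages of the mice and the promoters of the transgenes are not given in the sources used here. ApoE is itself a macrophage product, so the knockout also removes a gene of the cells these markers belong to.

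Macrophages live in the healthy valve leaflet and are joined by cells from blood monocytes when lipoproteins collect there. Their growth and survival depend on the CSF1 receptor, and their identity on the transcription factor PU.1, the product of Spi1. They sense and bind particles through Fc receptors, integrins and lectins, many of which signal through adaptors with an immunoreceptor tyrosine-based activation motif (ITAM). They kill and digest with a phagocyte NADPH oxidase, lysozyme and lysosomal proteins, and they move by remodelling actin. Several of the 31 genes, among them Ptprc, Cd53, Laptm5, Coro1a and Itgb2, are active in lymphocytes as well.

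Values are the authors' normalised counts, all multiplied by the same factor so that the median library sums to 1000000, and are called units. They are not corrected for gene length, so levels are compared between mice and not between genes. The sums of the 15 deposited libraries were nearly equal, between 10207928 and 10210305, and the depth behind them is unknown. In each library 4 rows took from 32.4% to 62.7% of the sum, and a larger share lowers every other value. Median-of-ratios factors, which scale each library by its typical gene, ran from 0.626 to 1.32, and results that move under them are given with both scalings. HT replicate 2 and HT replicate 3 had the largest shares, 62.2% and 62.7%. Apoe, the targeted gene, was at 2.15 to 12.3 units in the 7 knockout libraries and at 56.6 to 1014 in the 8 others, so the knockout part of the label held in all 15. The transgenes were not checked here. The table numbers its columns 1 to 7 for the knockout mice and 9 to 17 for the others. If these numbers mark an order of handling, it cannot be told apart from the genotype.

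All 31 genes were higher in the valves of the 7 mice without ApoE (HC and HC/HT) than in those of the 8 mice with it (CON and HT), and 15 of them passed the test. In the limma fit with group and sex as terms, genes with a Benjamini-Hochberg adjusted p under 0.05, taken over all 15004 genes, are said to have passed. Of all genes 1.28% passed as higher, and 61.8% had a positive difference. The 15 were Cd68, Lyz2, Mpeg1, Laptm5, Itgb2, Itgam, Cd84, Clec7a, Cd14, Sirpa, Fcgr2b, Cybb, Ncf1, Ncf4 and Cd53. The median difference of the 31 genes was 1.39 on the log2(units + 1) scale, where that of all genes was 0.09. The smallest was 0.82 (Csf1r) and the largest 2.18 (Clec7a), and 28 of the 31 had an unadjusted p under 0.05, against 7.31% of all genes. In bulk tissue, more myeloid cells and more RNA per cell cannot be told apart. With median-of-ratios factors 9 genes passed, where 1.1% of all genes did, and the median was 1.31. Of the 15, 8 also passed there, and Itgam, Itgb2, Laptm5, Cd53, Cybb, Ncf1 and Cd84 did not, while Itgax, which is not among the 15, did. HC/HT replicate 2 and HT replicates 2 and 3 correlated least with the other libraries over all genes. Without these 3 libraries 4 of the 31 passed, Cd68, Lyz2, Clec7a and Mpeg1, where 0.222% of all genes passed as higher.

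**Figure D1:**
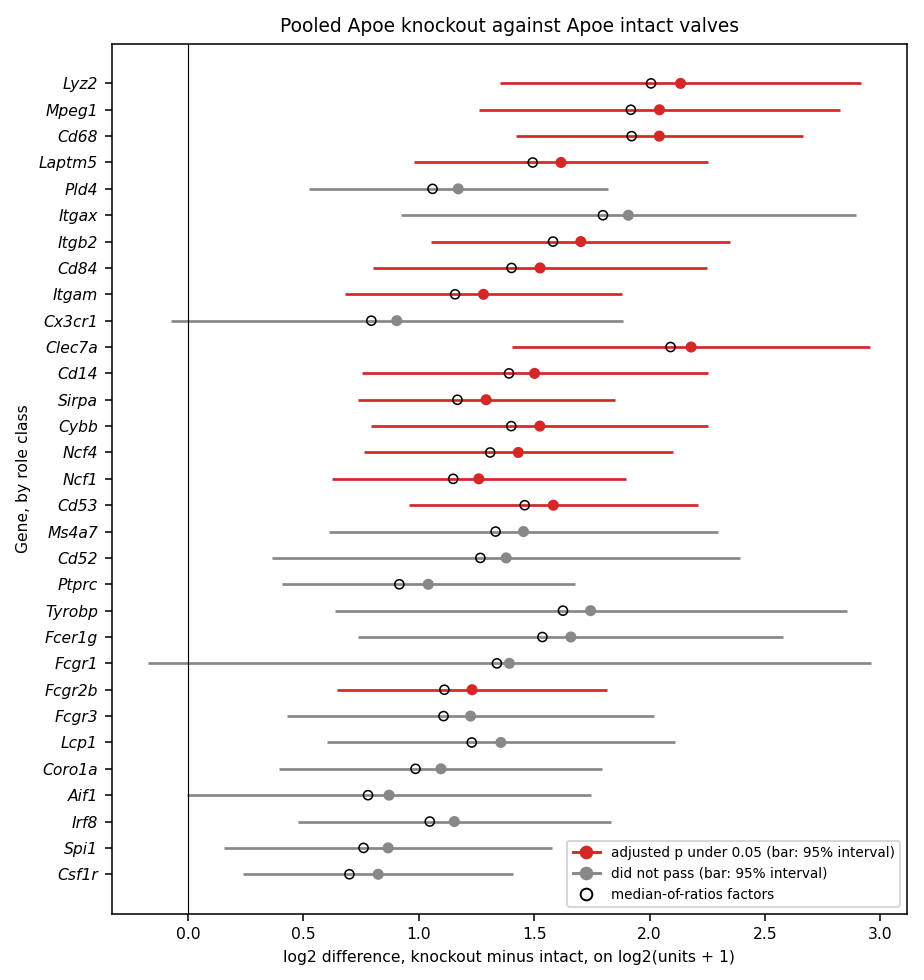
The x axis gives the log2 difference between the 7 ApoE knockout and the 8 ApoE intact libraries from limma on log2(units + 1), with a filled point and its 95% confidence interval for each of the 31 genes (y axis), red where the gene passed and grey where it did not, and an open circle for median-of-ratios factors. All 31 filled points lie above 0, from 0.82 for Csf1r to 2.18 for Clec7a, and 15 passed the test.

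By a count over mice, 8 genes had all 7 knockout libraries above all 8 intact ones: Cd68, Lyz2, Fcgr2b, Clec7a, Cd53, Mpeg1, Sirpa and Irf8. Such separation was seen in 0.673% of all genes. With median-of-ratios factors it was kept by Cd68, Lyz2, Clec7a and Sirpa, where the share of all genes was 0.633%. An exact two-sided permutation test over the 6435 ways to split the 15 libraries, which leaves out sex, gave an unadjusted p under 0.05 in all 31 genes, each higher in the knockout libraries. Of all genes 8.66% were higher at that p. The p was 0.000311, the smallest these splits can give, in the 8 genes without overlap, and at most 0.0301 (Aif1). In those 8 genes it follows from the lack of overlap and is not a second result. The test is of single genes and not of the list as a whole. Of the intact libraries, HT replicate 1 came nearest to the knockout mice. It was above the lowest knockout library in 19 genes and was the highest intact library in 17. CON replicate 4 was the highest intact library in 9 genes. On the deposited scale HT replicate 2 and HT replicate 3 were below every knockout library in all 31 genes. Among knockout mice on that scale, HC/HT replicate 1 overlapped the intact range in 18 genes and HC replicate 3 in 0.

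**Figure D2:**
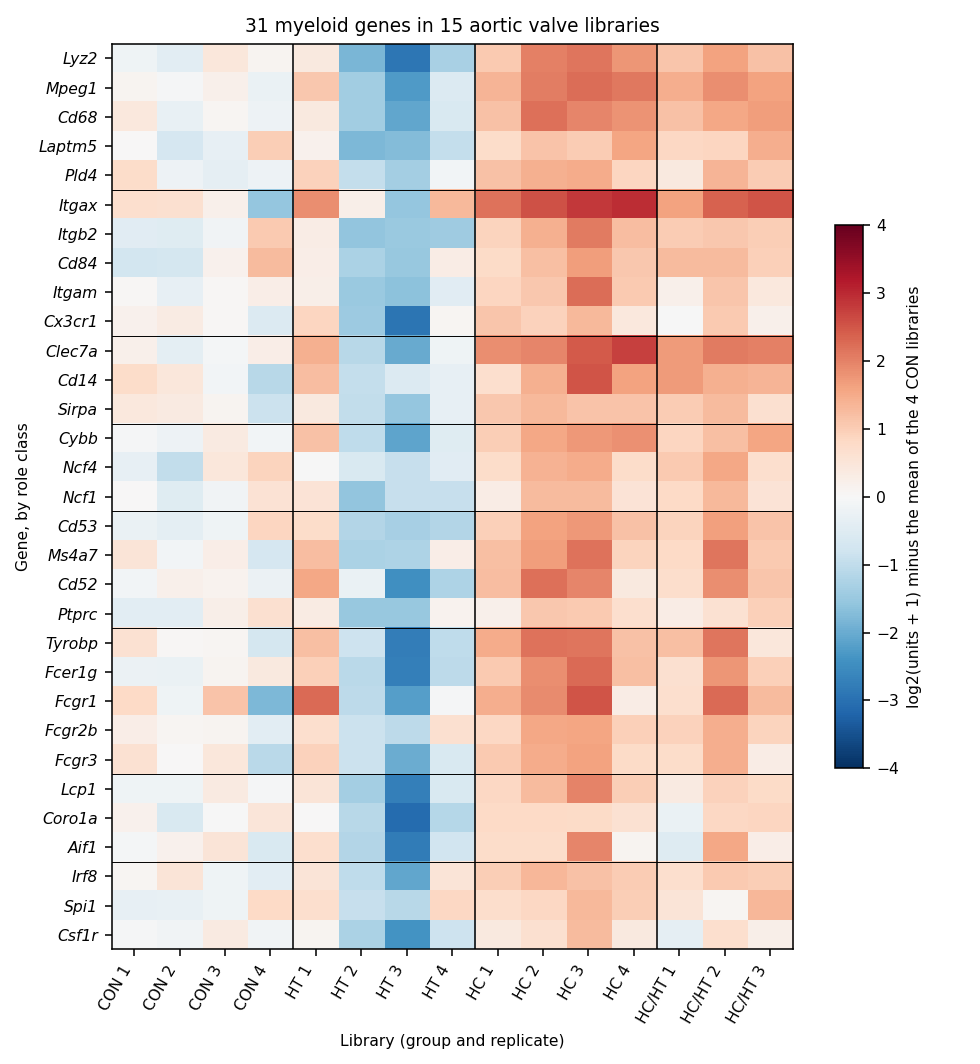
Colour shows each gene's log2(units + 1) in each of the 15 libraries, relative to the mean of the gene in the 4 CON libraries, with genes on the y axis by role and libraries on the x axis by group. The knockout libraries are mostly red, HT replicate 3 is the lowest library in 24 of 31 genes, and HT replicate 1 stands near the knockout mice.

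Lysosomal and secreted proteins of phagocytes held 3 of the 4 largest differences, and 4 of these 5 genes passed. Cd68, a lysosomal glycoprotein widely used to stain macrophages (mm10 chromosome 11, 69664213 to 69666153), was at 45.2, 26.6, 35.0 and 29.0 units in CON mice, 44.1, 12.0, 7.15 and 21.4 in HT mice, 75.7, 157, 132 and 118 in HC mice, and 76.99, 98.7 and 107 in HC/HT mice. Every knockout mouse was above every intact mouse, the lowest being HC replicate 1. Its pooled log2 difference, with its SE, was 2.04 ± 0.30 (adjusted p 0.000371), or 4.12-fold on the value + 1. Lyz2, the lysozyme of macrophages that attacks bacterial cell walls, was at 522, 439, 807 and 632 units in CON mice, 768, 162, 77.8 and 237 in HT mice, 1221, 2379, 2602 and 1969 in HC mice, and 1260.1, 1782 and 1317 in HC/HT mice. The 2 sets of mice did not overlap, and HT replicate 3 was the lowest. Its difference was 2.13 ± 0.38 (adjusted p 0.00454). Lyz2 has a near-identical neighbour, Lyz1, and the sources used here do not say how reads were divided between them. Mpeg1, which encodes the pore-forming perforin-2 of phagocytes, was at 75.7, 67.4, 79.7 and 57.2 units in CON mice, 149, 26.0, 13.5 and 47.2 in HT mice, 179, 291, 329 and 303 in HC mice, and 192, 256 and 214 in HC/HT mice. HT replicate 1 was its highest intact library and still below the lowest knockout one. Its difference was 2.04 ± 0.37 (adjusted p 0.00758). Laptm5, a lysosomal membrane protein of blood cells, was at 48.7, 30.4, 39.0 and 96.6 units in CON mice, 54.7, 13.3, 13.9 and 24.4 in HT mice, 81.5, 109.5, 98.7 and 146 in HC mice, and 86.5, 89.2 and 136 in HC/HT mice. Here CON replicate 4 reached the range of the knockout mice. The difference was 1.62 ± 0.31 (adjusted p 0.00582), with an adjusted p of 0.0717 under median-of-ratios factors. Pld4, an endolysosomal exonuclease, did not pass, with 1.17 ± 0.32 (adjusted p 0.0562).

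The promoter of Lyz2 is shown with those of the other members that hold the purine-rich PU.1 motif AGGAAGT, since PU.1 is the factor that ties many of these genes to the myeloid lineage. The RefSeq (GRCm38.p6) promoters used here cover 23 of the 31 genes. Csf1r, Itgb2, Cd14, Tyrobp, Cd52, Spi1, Ncf4 and Sirpa had no entry and were not searched. In the 250 bases before the start, read on both strands, 3 of the 23 hold the motif (13.0%), against 8.80% of 27025 genes. Each sequence runs 5′ to 3′ on the gene's strand, ends at the start or at the first annotated exon, and has the motif in capitals. In Lyz2 (chr10:117282322-117282522, minus strand) it lies on the opposite strand and begins 100 bases before the RefSeq start. In Fcgr1 (chr3:96293970-96294219, minus strand) it lies on the opposite strand as well, 61 bases before the start. A promoter of Ptprc (chr1:138175307-138175555, minus strand) holds it 2 times, on the gene's strand 113 bases and on the opposite strand 58 bases before the start.
Lyz2: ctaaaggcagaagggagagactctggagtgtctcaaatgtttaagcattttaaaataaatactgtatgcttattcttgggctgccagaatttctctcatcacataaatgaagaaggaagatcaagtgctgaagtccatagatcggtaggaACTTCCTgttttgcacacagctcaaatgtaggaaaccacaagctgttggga
Fcgr1: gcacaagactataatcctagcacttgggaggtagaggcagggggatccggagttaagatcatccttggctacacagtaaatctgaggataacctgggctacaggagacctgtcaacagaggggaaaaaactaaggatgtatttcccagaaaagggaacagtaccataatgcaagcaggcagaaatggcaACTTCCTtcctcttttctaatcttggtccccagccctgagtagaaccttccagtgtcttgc
Ptprc: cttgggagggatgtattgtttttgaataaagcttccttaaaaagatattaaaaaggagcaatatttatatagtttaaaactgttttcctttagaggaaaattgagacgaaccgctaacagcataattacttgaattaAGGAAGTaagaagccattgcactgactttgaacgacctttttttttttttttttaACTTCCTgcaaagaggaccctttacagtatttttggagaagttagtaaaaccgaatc
Of these 3 genes only Lyz2 passed the pooled test. The match describes these letters and not a bound site.

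All 3 subunits of the phagocyte NADPH oxidase, the enzyme that makes superoxide in the phagosome, were higher without ApoE. Cybb, its membrane-bound catalytic subunit gp91phox, was at 51.1, 45.2, 68.0 and 48.3 units in CON mice, 119, 25.3, 11.46 and 37.4 in HT mice, 106, 157, 177 and 189 in HC mice, and 96.3, 122 and 160.1 in HC/HT mice. HT replicate 1 was inside the knockout range and the other 7 intact mice were below it. The difference was 1.52 ± 0.35 (adjusted p 0.0318). Ncf1, the organiser p47phox, was at 12.6, 8.72, 11.3 and 19.3 units in CON mice, 18.6, 3.53, 6.17 and 6.17 in HT mice, 15.5, 31.2, 31.4 and 18.5 in HC mice, and 22.4, 32.3 and 18.6 in HC/HT mice. Its groups overlapped, with CON replicate 4 and HT replicate 1 above HC replicate 1. The difference was 1.26 ± 0.31 (adjusted p 0.0329). Ncf4, the subunit p40phox that binds phosphoinositide, was at 2.45, 1.18, 4.90 and 7.05 units in CON mice, 3.33, 1.86, 1.27 and 2.15 in HT mice, 6.17, 10.4, 11.3 and 6.27 in HC mice, and 8.03, 11.6 and 5.98 in HC/HT mice. Only CON replicate 4 among the intact mice entered its knockout range. The difference was 1.43 ± 0.33 (adjusted p 0.0192). Under median-of-ratios factors Ncf4 passed (adjusted p 0.0498), while Cybb (0.0565) and Ncf1 (0.0683) did not. Of 4 other subunits tested 1 passed as higher and is not reported here. Cyba (p22phox) at 1.28 ± 0.42 (adjusted p 0.178) and the GTPase Rac2 at 1.27 ± 0.36 (adjusted p 0.0931) did not pass. Nox4, the catalytic subunit of vessel and stromal cells, was at -0.76 ± 0.34 (adjusted p 0.452).

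Each of the 3 pattern recognition and inhibitory receptors passed. Clec7a, or dectin-1, the receptor for fungal beta-glucan, had the largest difference of the 31 and was at 6.46, 3.92, 5.09 and 6.66 units in CON mice, 16.4, 1.96, 0.588 and 4.70 in HT mice, 22.1, 24.0, 34.3 and 42.1 in HC mice, and 19.9, 26.4 and 24.8 in HC/HT mice. No intact mouse reached a knockout mouse. The difference was 2.18 ± 0.38 (adjusted p 0.00204). In the GENCODE M21 annotation the locus, on chromosome 6 from 129461591 to 129472779, is typed as a polymorphic pseudogene. Sirpa, the receptor that holds back phagocytosis on binding CD47, was at 76.99, 73.2, 61.6 and 30.8 units in CON mice, 76.1, 28.4, 19.0 and 45.5 in HT mice, 121, 141, 127 and 128 in HC mice, and 118, 139 and 90.2 in HC/HT mice. The 2 sets did not overlap, and HC/HT replicate 3 was the lowest knockout mouse. The difference was 1.29 ± 0.27 (adjusted p 0.00932). Cd14, the co-receptor for lipopolysaccharide, was at 20.6, 16.8, 10.9 and 5.00 units in CON mice, 29.1, 5.58, 7.74 and 9.31 in HT mice, 19.4, 33.5, 72.8 and 38.1 in HC mice, and 41.0, 33.7 and 31.6 in HC/HT mice. HC replicate 1 was within the intact range, below CON replicate 1 and HT replicate 1. The difference was 1.502 ± 0.36 (adjusted p 0.0367). These 3 genes also passed under median-of-ratios factors. Of 11 further Toll-like and lectin receptors all 11 had a positive difference, and Tlr13 (1.70 ± 0.39 (adjusted p 0.0309)) and Clec4d (1.46 ± 0.37 (adjusted p 0.0399)) passed. None of the 11 passed under median-of-ratios factors.

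Among integrins and receptors for adhesion or migration, 3 of 5 passed. Itgb2, the beta chain CD18 shared by the leukocyte integrins, was at 20.2, 19.5, 25.3 and 58.6 units in CON mice, 34.5, 8.52, 9.21 and 9.70 in HT mice, 51.8, 76.2, 119.8 and 66.5 in HC mice, and 56.4, 59.2 and 55.9 in HC/HT mice. CON replicate 4 entered the knockout range, as the other 7 intact mice did not. The difference was 1.70 ± 0.31 (adjusted p 0.00402). Itgam, the alpha chain CD11b that pairs with it (chromosome 7, 128062640 to 128118491, next to Itgax at 128129547 to 128150657), was at 47.1, 36.0, 47.0 and 55.0 units in CON mice, 54.1, 15.9, 14.1 and 33.2 in HT mice, 83.9, 96.8, 219.7 and 96.4 in HC mice, and 52.5, 100.4 and 61.4 in HC/HT mice. HC replicate 3 stood apart at the top, and HC/HT replicate 1 was within the intact range. The difference was 1.28 ± 0.29 (adjusted p 0.0209). Cd84, a self-binding receptor of the SLAM family, was at 15.5, 16.0, 30.4 and 64.8 units in CON mice, 31.8, 10.4, 8.62 and 32.7 in HT mice, 45.8, 62.2, 86.2 and 57.2 in HC mice, and 65.6, 64.6 and 52.2 in HC/HT mice. CON replicate 4 lay among the HC values. The difference was 1.53 ± 0.35 (adjusted p 0.03). None of these 3 passed under median-of-ratios factors, with adjusted p values of 0.0502, 0.053 and 0.119. Itgax, the alpha chain CD11c of dendritic cells and lipid-laden macrophages, had a large difference with a wide error at 1.91 ± 0.46 (adjusted p 0.058), and an adjusted p of 0.0319 under median-of-ratios factors. Its values ran from 2.64 to 16.0 units in CON, 2.64 to 37.6 in HT, 46.9 to 80.1 in HC and 31.6 to 59.8 in HC/HT. HT replicate 1 and HC/HT replicate 1 overlapped. Cx3cr1, the fractalkine receptor of patrolling monocytes and resident macrophages, did not pass, with 0.90 ± 0.46 (adjusted p 0.573). Of 7 partner genes of the integrins and their activators 0 passed in the limma fit, nor did any under median-of-ratios factors. The smallest p was that of the activator Fermt3 at 1.23 ± 0.37 (adjusted p 0.115).

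Fc receptors bind antibody-coated particles, and 1 of 5 genes in this class with the ITAM adaptors passed. Fcgr2b, the inhibitory Fc gamma receptor, was at 23.5, 20.5, 21.1 and 14.3 units in CON mice, 31.6, 10.3, 9.01 and 31.1 in HT mice, 35.3, 59.2, 60.6 and 38.9 in HC mice, and 37.9, 54.7 and 37.3 in HC/HT mice. The knockout mice were all above the intact ones, with HT replicate 1 and HT replicate 4 the closest. The difference was 1.23 ± 0.29 (adjusted p 0.0222). Fcer1g, the common gamma chain that carries the ITAM for activating Fc receptors, was at 48.5, 46.9, 61.6 and 75.3 units in CON mice, 111, 26.5, 7.74 and 27.2 in HT mice, 119, 207, 278 and 133 in HC mice, and 90.4, 197 and 110.3 in HC/HT mice. HT replicate 1 was above HC/HT replicates 1 and 3, and the other intact mice were below all 7. Its difference did not pass, at 1.66 ± 0.43 (adjusted p 0.0848). Tyrobp, the adaptor DAP12, was at 1.74 ± 0.51 (adjusted p 0.164). The activating receptors Fcgr3 and Fcgr1 were at 1.22 ± 0.38 (adjusted p 0.156) and 1.39 ± 0.72 (adjusted p 0.599), the latter with the widest error of the 31 genes. In mm10, Fcgr2b (170958617 to 170976547), Fcgr3 (171051174 to 171064935), Fcer1g (171229572 to 171234365) and Cd84 (171839697 to 171890718) lie near each other on chromosome 1. The low-affinity receptor genes are close copies, so the split of reads between Fcgr2b and Fcgr3 is uncertain. Downstream of these receptors, 6 of 16 genes of ITAM and Fc receptor signalling passed as higher, and all 16 were positive, with a median of 1.13. They included the kinases Syk and Fgr, the exchange factor Vav1, the phosphatase Inpp5d and the lipid-sensing receptor Trem2. Trem2, which signals through Tyrobp, had means ± SD (n = 4, 4, 4 and 3) of 5.36 ± 2.93 units in CON mice, 3.55 ± 3.14 in HT mice, 34.0 ± 7.03 in HC mice and 34.6 ± 14.3 in HC/HT mice, a difference of 2.76 ± 0.32 (adjusted p 5.01e-06). Syk, the kinase that docks on phosphorylated ITAMs, had means of 17.8 ± 6.73 units in CON mice, 9.40 ± 3.95 in HT mice, 28.04 ± 3.21 in HC mice and 31.02 ± 8.201 in HC/HT mice, a difference of 1.24 ± 0.27 (adjusted p 0.0108).

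The growth factor receptor and the 2 transcription factors did not pass, 0 of 3. Csf1r, the receptor for CSF1, was at 84.8, 80.8, 113 and 79.7 units in CON mice, 96.3, 36.5, 16.2 and 49.6 in HT mice, 117, 139, 216 and 117 in HC mice, and 69.5, 143 and 105 in HC/HT mice. HC/HT replicate 1 was below all 4 CON mice. The difference was 0.82 ± 0.28 (adjusted p 0.204), with a 95% interval from 0.24 to 1.41. Irf8, a factor of monocyte and dendritic cell development, was at 13.5, 18.5, 11.1 and 9.31 units in CON mice, 18.7, 5.78, 2.25 and 18.5 in HT mice, 26.0, 33.5, 30.2 and 26.5 in HC mice, and 20.7, 27.4 and 25.9 in HC/HT mice. All 7 knockout mice were above all 8 others, by a small gap between HT replicate 1 and HC/HT replicate 1. The difference was 1.15 ± 0.33 (adjusted p 0.0848). Spi1 was at 0.87 ± 0.35 (adjusted p 0.327), and its groups overlapped. Csf1, the ligand of the receptor, had means of 85.6 ± 27.3 units in CON mice, 65.8 ± 19.4 in HT mice, 90.9 ± 18.4 in HC mice and 72.9 ± 19.0 in HC/HT mice, a difference of 0.08 ± 0.24 (adjusted p 0.97). Of 7 growth factor and receptor genes tested 1 passed, Csf2rb, the shared beta chain of the GM-CSF receptor, with means of 30.3 ± 14.2 units in CON mice, 27.0 ± 13.0 in HT mice, 102 ± 28.5 in HC mice and 95.2 ± 38.0 in HC/HT mice and a difference of 1.56 ± 0.27 (adjusted p 0.0012). Of 11 other macrophage transcription factors 0 passed in limma under either scaling. The smallest p was that of Irf5 at 1.13 ± 0.30 (adjusted p 0.0513).

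Actin regulators and leukocyte membrane proteins passed in 1 of 7 genes, Cd53. Cd53, a tetraspanin of all leukocytes, was at 27.4, 25.1, 29.3 and 61.8 units in CON mice, 56.2, 14.4, 12.7 and 14.2 in HT mice, 65.6, 105, 114 and 76.4 in HC mice, and 62.3, 105 and 74.4 in HC/HT mice. The sets did not overlap, although CON replicate 4 and HT replicate 1 stood far above the other intact mice. The difference was 1.58 ± 0.30 (adjusted p 0.00561). Lcp1, the actin bundler L-plastin, was at 128, 129, 185 and 140.5 units in CON mice, 205, 55.1, 20.7 and 93.6 in HT mice, 256, 348, 567 and 287 in HC mice, and 186, 273 and 246 in HC/HT mice. HT replicate 1 was above HC/HT replicate 1 and below the other knockout mice. Its difference was 1.36 ± 0.36 (adjusted p 0.0751). Coro1a, a coronin of the leukocyte cortex, was at 24.1, 13.8, 21.1 and 30.4 units in CON mice, 21.5, 9.50, 1.67 and 9.21 in HT mice, 38.2, 37.9, 37.4 and 33.2 in HC mice, and 17.5, 38.8 and 40.3 in HC/HT mice. HC/HT replicate 1 was within the CON range. The difference was 1.10 ± 0.34 (adjusted p 0.138). Ms4a7, a membrane-spanning protein of macrophages, was at 43.8, 28.2, 37.2 and 18.7 units in CON mice, 72.8, 12.1, 12.4 and 36.5 in HT mice, 71.3, 99.3, 140.4 and 56.8 in HC mice, and 53.7, 137 and 63.9 in HC/HT mice. HT replicate 1 was above 4 of the 7 knockout mice. The difference was 1.45 ± 0.40 (adjusted p 0.1). The others were Ptprc, the phosphatase CD45 of all leukocytes, at 1.04 ± 0.31 (adjusted p 0.109), Cd52, a short GPI-linked protein of leukocytes, at 1.38 ± 0.47 (adjusted p 0.257), and Aif1, the actin-binding IBA1 of macrophages, at 0.87 ± 0.42 (adjusted p 0.512).

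**Figure D3:**
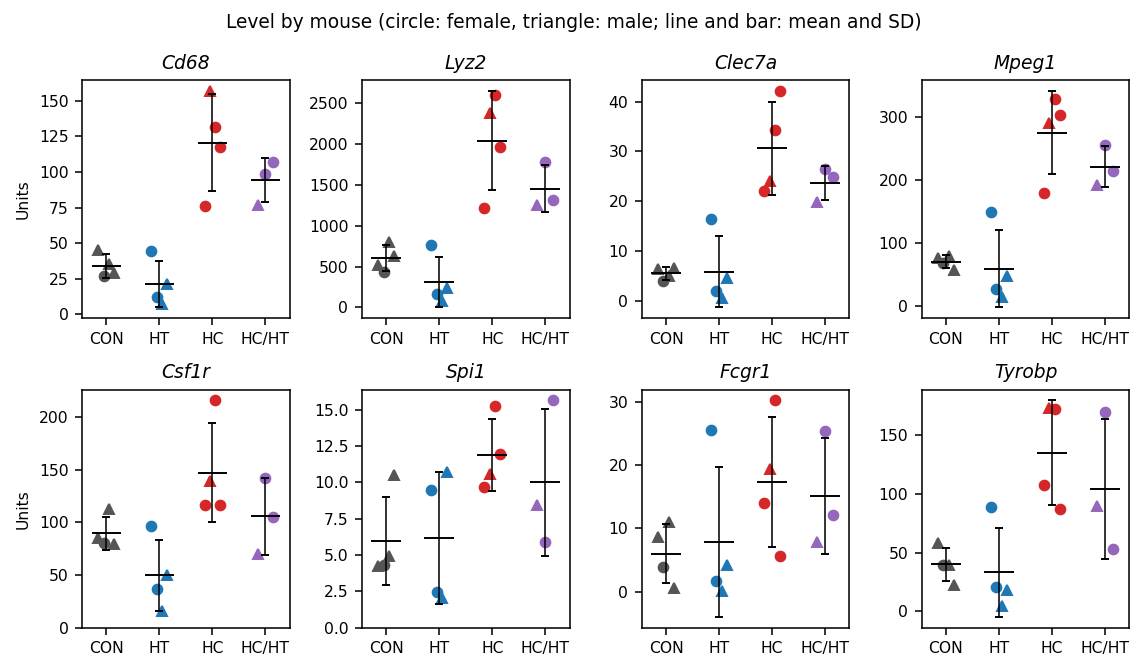
Units (y axis) in each mouse by group (x axis) for 8 of the genes, with circles for females, triangles for males, a line at the mean of the group and a bar for its SD. In Cd68, Lyz2, Clec7a and Mpeg1 the 7 knockout mice (HC, HC/HT) lie above the 8 others (CON, HT), while in Csf1r, Spi1, Fcgr1 and Tyrobp they overlap.

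Taken group by group, none of the 31 genes passed in HC valves against CON valves, although all 31 were higher (47.3% of all genes). Their median difference was 1.23 (all genes -0.02), 21 had an unadjusted p under 0.05 (2.56% of all genes), and the smallest adjusted p was 0.145. In that comparison 0.107% of all genes passed as higher. In 21 genes the 4 HC mice lay above the 4 CON mice without overlap, as in 2.81% of all genes, and in 17 under median-of-ratios factors (3.84%). Itgax had the largest difference, 2.23, followed by Clec7a at 2.03. Coro1a (0.48), Csf1r (0.44) and Aif1 (0.44) had the smallest. The count of 0 was not kept under every setting. With library weights 16 of the 31 passed (1.55% of all genes as higher), and with the 8 libraries fitted alone 8 did (0.265%). When HT replicate 1 or HT replicate 3 was left out 4 passed (0.275% and 0.241%).

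HC/HT valves against CON valves, which share the CON mice with the comparison above, gave 0 of 31 passed and 15 at an unadjusted p under 0.05. The shares of all genes were 0.147% and 2.99%. The median difference was 0.98 (all genes -0.20), and 30 of 31 were positive, all but Csf1r (33.2% of all genes). In 15 genes the groups did not overlap (2.89% of all genes). Without HT replicate 1, 3 genes passed (0.275% of all genes as higher), and without HT replicate 3, 2 did (0.221%). On the deposited scale the order of the groups was HC, HC/HT, CON and HT in the mean log2 of the 31 genes, at 6.11 ± 0.35 (SD, n = 4), 5.82 ± 0.32 (n = 3), 4.77 ± 0.14 (n = 4) and 4.10 ± 1.13 (n = 4). HC and HC/HT did not differ beyond their spread, nor did CON and HT. The 31 genes summed to 0.476 ± 0.128% of all units in HC, 0.358 ± 0.0732% in HC/HT, 0.166 ± 0.0253% in CON and 0.109 ± 0.0943% in HT.

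Hypertension on top of ApoE loss left the genes without a detected change. HC/HT against HC gave 0 of 31 passed in limma and 0 at an unadjusted p under 0.05, and no gene separated the groups. Over all genes 0% passed, 0.693% were higher and 3.71% lower at an unadjusted p under 0.05, and 1.02% separated the groups as higher and 4.53% as lower. The median difference was -0.27, near that of all genes, -0.18, and under median-of-ratios factors it was -0.08. The smallest was -0.71 for Itgam, where HC replicate 3 stood apart.

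In HT valves against CON valves the deposited scale and the median-of-ratios scale differed. On the deposited scale 30 of 31 genes were lower, with a median of -0.73, where 86.7% of all genes were lower with a median of -0.42. None passed (0% of all genes), and 9 had an unadjusted p under 0.05 as lower, as had 12.6% of all genes. Median-of-ratios factors gave a median of -0.29 (all genes -0.01), with 26 genes negative (51.1% of all genes) and 2 at an unadjusted p under 0.05 as lower (2.47%). Spi1, Fcgr2b, Cd14 and Ms4a7 then turned positive, as Itgax was under both scalings. The groups overlapped in all 31 genes, while 0.0666% of all genes separated them as higher and 4.15% as lower. HT was the most uneven group, with sums of 0.244% in replicate 1, 0.0589% in replicate 2, 0.0321% in replicate 3 and 0.0993% in replicate 4. HT replicate 1 was the highest HT mouse in 29 genes. HT replicate 3 was the lowest of all 15 mice in 24 genes under either scaling. With totals that leave out the 4 abundant rows the median was -0.39 (all genes -0.10), with 26 genes negative. Under median-of-ratios factors and without HT replicate 3 the median was 0.06.

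**Figure D4:**
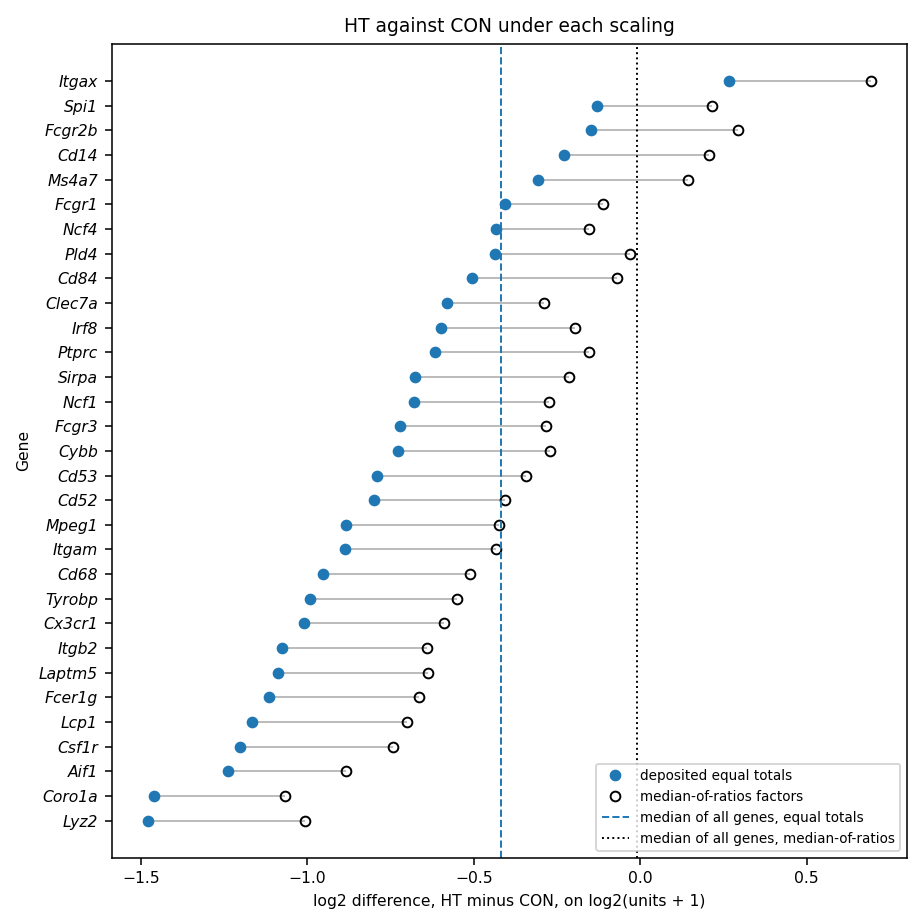
The x axis gives the log2 difference of HT against CON for each of the 31 genes (y axis), with filled points for the deposited totals, open circles for median-of-ratios factors and vertical lines at the median of all genes under each, -0.42 (dashed) and -0.01 (dotted). Every gene moves to the right under the factors, and the number above 0 goes from 1 to 5.

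HC/HT against HT was the only comparison of single groups in which any of the 31 genes passed. There 6 of 31 genes passed as higher, Cd68 (2.37 ± 0.42, adjusted p 0.0125), Lyz2 (2.66 ± 0.52, adjusted p 0.0338), Laptm5 (2.13 ± 0.43, adjusted p 0.0338), Itgb2 (2.05 ± 0.44, adjusted p 0.035), Cd53 (1.91 ± 0.42, adjusted p 0.0467) and Clec7a (2.33 ± 0.52, adjusted p 0.049). Of all genes 0.32% passed. Without the 3 least correlated libraries 0 passed and the median was 0.75. Without HT replicate 1 the number was 25 (1.69% of all genes as higher), and without CON replicate 3 it was 3 (0.222%). Without HT replicate 3 it was 2 (0.0869%), and without HT replicate 4 or HC/HT replicate 3 it was 1 (0.127% and 0.282%). Without HT replicate 2, HC/HT replicate 1 or HC/HT replicate 2 it was 0 (0.0268%, 0.0335% and 0.0469%). All 31 were positive (69.5% of all genes) with a median of 1.62 (all genes 0.21), and 28 had an unadjusted p under 0.05 (7.32% of all genes). Median-of-ratios factors gave a median of 1.41 and 2 genes that passed, Cd68 and Sirpa (0.16% of all genes). In 13 genes the 3 HC/HT mice were above the 4 HT mice (4.99% of all genes), and in 29 when HT replicate 1 was left out (16.6%). HC against CON and HC/HT against HT use different mice, though their errors come from the same fit. In 8 genes both pairs of groups separated without overlap, as in 0.946% of all genes. These were Cd68, Lyz2, Fcgr2b, Clec7a, Cd53, Mpeg1, Sirpa and Irf8, the same 8 that separated all knockout from all intact libraries. That pooled separation already includes both pairs, so this count is not a second result. The interaction, the difference of these 2 effects, passed in 0 of 31 genes in limma (0% of all genes), with 0 at an unadjusted p under 0.05 (1.15% of all genes as positive and 0.233% as negative). Its median was 0.52 (all genes 0.23) and 0.31 under median-of-ratios factors (all genes -0.01). Without HT replicate 3 it was -0.02.

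The sexes were unevenly spread, so the pooled contrast was also read within each sex, by counts alone. Among females, 17 genes had the 5 knockout mice above the 3 intact mice (2.99% of all genes). Among males, 19 genes had the 2 knockout mice above the 5 intact mice (9.02%). Cd68, Lyz2, Itgax, Clec7a and Sirpa were among both under either scaling.

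How firmly each gene passed the pooled test varied. Over 29 alternative settings, 15 of which left out 1 mouse, Cd68, Lyz2 and Clec7a passed in all 29. Another of the 29 is the main fit read at an adjusted p under 0.1, which the first 15 genes meet by definition. Itgb2 and Mpeg1 passed in 27, Cd53 and Laptm5 in 26, Sirpa in 23, Ncf4 in 22 and Itgam in 20. Fcgr2b, Cd84, Cd14, Cybb and Ncf1 passed in 19, 18, 17, 16 and 15. Itgax, outside the 15, passed in 14, of which the looser threshold of 0.1 is 1. Aif1, Cx3cr1, Fcgr1 and Spi1 passed in 0, with their smallest differences at 0.26, 0.20, 0.61 and 0.55. No gene changed direction in any of the 29. The number that passed was 27 without HT replicate 1 (2.65% of all genes as higher) and 19 without HT replicate 3 (1.31%). It fell to 6 without HT replicate 2 or HC/HT replicate 1 (0.395% and 0.522%). It fell to 7 without CON replicate 2 or HC replicate 2 (0.530% and 0.597%), and to 8 without HC/HT replicate 2 (0.710%). HC replicate 2 and HC/HT replicate 1 are the only males of their groups, and CON replicate 2 the only CON female.

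**Figure D5:**
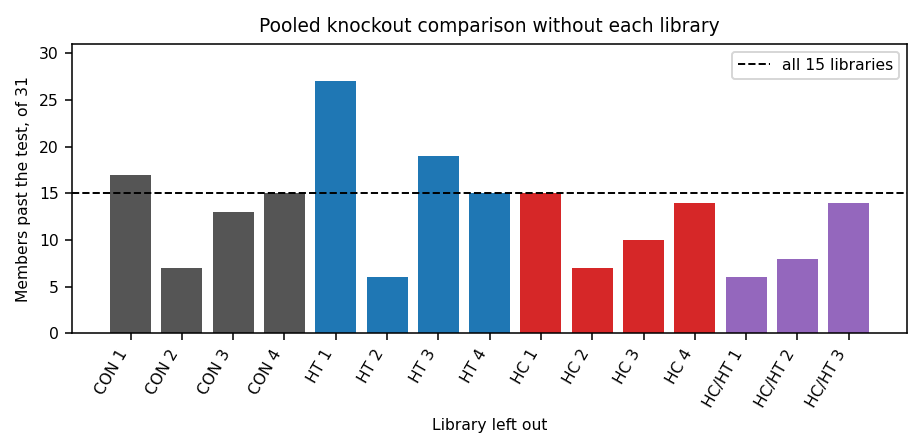
The bars give the number of the 31 genes that passed in the pooled limma test (y axis) with each library left out in turn (x axis, coloured by group), and the dashed line marks the 15 that passed with all libraries. The counts run from 6 (HT replicate 2 or HC/HT replicate 1 left out) to 27 (HT replicate 1 left out).

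Markers of other cells were read beside these genes. The 15 libraries carried the valve interstitial and fibroblast list at 5437 to 19144 units and the endothelial list at 516 to 1147, and neither list had a gene that passed in the pooled test (median differences -0.01 and 0.09). Adgre1, which encodes the macrophage surface protein F4/80, had means of 30.3 ± 11.4 units in CON mice, 19.4 ± 22.4 in HT mice, 61.4 ± 19.6 in HC mice and 43.3 ± 11.6 in HC/HT mice. Its pooled difference was 1.16 ± 0.43 (adjusted p 0.315). Of 10 markers of resident macrophages, Adgre1 among them, 5 had a positive difference, with a median of -0.07. In the limma fit 0 passed as higher and 2 passed as lower. Lyve1, the hyaluronan receptor of perivascular macrophages and lymphatic vessels, had means of 40.2 ± 11.0 units in CON mice, 10.4 ± 7.99 in HT mice, 15.2 ± 8.57 in HC mice and 1.04 ± 0.688 in HC/HT mice and fell by 2.06 ± 0.42 (adjusted p 0.0137). Timd4, a phosphatidylserine receptor of long-lived resident macrophages, had means of 4.75 ± 1.48 units in CON mice, 1.91 ± 1.16 in HT mice, 1.03 ± 0.810 in HC mice and 0.555 ± 0.590 in HC/HT mice and fell by 1.36 ± 0.33 (adjusted p 0.0289). Both also passed as lower under median-of-ratios factors. Mrc1, the mannose receptor, was at 138 ± 50.6 units in CON mice, 61.3 ± 40.4 in HT mice, 131 ± 49.3 in HC mice and 81.1 ± 14.2 in HC/HT mice, a difference of 0.18 ± 0.38 (adjusted p 0.947).

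The neutrophil list summed to 4.11 to 44.4 units in CON, 2.35 to 8.72 in HT, 10.1 to 22.5 in HC and 8.13 to 44.5 in HC/HT, and its granule genes Mpo, Camp and Ltf were under 1 unit in all 15 libraries. Its 3 tested genes were all positive in the pooled contrast, with a median of 1.27 (1.16 under median-of-ratios factors), and 0 passed. The T and NK cell list summed to 9.40 to 42.4 units in CON, 1.37 to 15.5 in HT, 19.8 to 55.7 in HC and 7.05 to 41.6 in HC/HT, with 7 of 7 tested genes positive, a median of 0.92 and 0 passed. The B and plasma cell list summed to 12.3 to 16.9 units in HC, 8.52 to 19.8 in HC/HT, 1.37 to 3.92 in HT and a median of 1.91 in CON, but to 119.8 in CON replicate 4. Of its 2 tested genes Cd22 passed, with means of 2.50 ± 3.32 units in CON mice, 1.57 ± 1.13 in HT mice, 11.4 ± 2.32 in HC mice and 10.22 ± 2.93 in HC/HT mice. CON replicate 4 is also the mouse with high Itgb2, Laptm5, Cd53, Cd84 and Spi1 for its group. The part of lymphocytes in these values was not tested, and without CON replicate 4 15 genes passed (1.23% of all genes as higher), 14 of them among the first 15. Of 6 monocyte markers 5 were tested and 4 were positive, with a median of 0.98 (0.83 under median-of-ratios factors). Ccr2, the chemokine receptor by which monocytes leave the marrow and enter tissue, had means of 13.9 ± 7.97 units in CON mice, 9.48 ± 7.15 in HT mice, 44.0 ± 31.5 in HC mice and 41.7 ± 27.1 in HC/HT mice, a difference of 1.82 ± 0.55 (adjusted p 0.177), and was named after its values were seen. Chil3 passed at means of 0.245 ± 0.247 units in CON mice, 0.441 ± 0.882 in HT mice, 1.84 ± 1.86 in HC mice and 3.36 ± 2.39 in HC/HT mice, near the bottom of the scale, and did not pass under median-of-ratios factors. Dendritic cell markers passed in 0 of 7, with a median of 0.64. Of the cardiomyocyte list 0 of 8 passed and all 8 were lower, with a median of -1.74 (-1.87 under median-of-ratios factors). Its sums ran from 161 to 11196 units. Of the smooth muscle list 1 of 6 passed, Myl9 as lower (-2.76 ± 0.59 (adjusted p 0.0443)). All 6 were lower, with a median of -2.19 (-2.31 under median-of-ratios factors) and sums from 46.7 to 2556 units. Mast cell, erythroid and adipocyte markers passed in 0 of 5, 0 of 4 and 0 of 2 genes tested. The erythroid list, a measure of blood in the sample, summed to 174 to 5619 units in CON (highest in replicate 4), 7.25 to 394 in HT, 238 to 12157 in HC (highest in replicate 1) and 101 to 479 in HC/HT. In HT against CON all 4 of its tested genes were lower, with a median of -3.16 (-2.72 under median-of-ratios factors), where the 31 genes had a median of -0.73. All 4 were also lower in HC/HT against CON (median -2.50) and in HC/HT against HC (-2.69). There the 31 genes had medians of 0.98 and -0.27. What the varying amounts of muscle and blood do to the values of the 31 genes was not tested.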

How the data were processed

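RNA-seq of aortic valves was measured in 15 libraries, each taken as 1 mouse. The authors deposited 1 table of values for 20992 genes, used here as a score: normalised counts rounded to whole numbers, per the file headers and values. Per the submitters' processing notes, the build was mm10 and the tools were edgeR (no version), SAMtools 0.1.9, Bowtie 1.0.1 and FastQC 0.11.2. The normalisation step was not given in the sources used here. Equal totals in all libraries hide the depth, so no counting interval or detection limit can be given. The table's 1 column without a name was not used.

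Values were multiplied by 0.0979537 (median total 1000000). Genes with 1 unit or more in at least 4 libraries entered the test, 15004 in all. Differences came from limma 3.58.1 (R 4.3.3; eBayes with trend and robust after lmFit and contrasts.fit) on log2(units + 1), with group and sex as terms and all 15 libraries in 1 fit. There were 7 comparisons: 5 between groups, the interaction, and the pooled contrast of the means of HC and HC/HT with those of CON and HT. P-values are two-sided, with Benjamini-Hochberg adjustment over all genes tested in a comparison, and errors after ± are SE for differences and SD for levels. Single genes were also tested by exact permutation (scipy 1.17.1). Samples were grouped by the labels, whose titles number replicates and give no count of mice per library. P-values therefore measure the spread between replicate libraries, each called a mouse here.

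Values in every library are given for genes that passed and for the 2 genes with the smallest pooled p in each of 8 roles. Genes of other lists are mostly named where they passed or had the smallest p. Adgre1, Mrc1, Csf1, Cyba, Rac2, Nox4 and Ccr2 are named outside that rule. Positions are from GENCODE M21 and promoters from RefSeq. Old symbols were used for Adgre1 and Jchain. Csf3, Elane, Hba-a1, Ly6g and Ngp were not analysed here, and some genes of the other lists are not reported here. The members, lists, naming rule and alternatives were chosen with earlier results of these data known. Alternatives covered scaling, pseudocount, filter, sex term, replicate block, spread estimate, a threshold of 0.1 on adjusted p, females alone and the omission of libraries.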

Additional observations from a re-analysis of the deposited data

Results flagged for a closer look

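A library was set apart where its gap to the nearest other library of its group, divided by the range of the group, both on the log2(units + 1) scale, passed Dixon's 95% critical value. This was tried for the 31 genes in CON, HT and HC, 93 groups in all, and was met in 7. Chance alone gives about 1 in 20 groups, or 4.65 here. The levels are given in units. Itgam was at 219.7 units in HC replicate 3, where the other HC mice were at 83.9 to 96.8. Itgb2 was at 34.5 units in HT replicate 1 and at 8.52 to 9.70 in the other HT mice. Cd53 was at 56.2 units in HT replicate 1, against 12.7 to 14.4, and at 61.8 in CON replicate 4, against 25.1 to 29.3. Spi1 was at 10.5 units in CON replicate 4 and at 4.21 to 4.90 in the other CON mice. Coro1a was at 33.2 units in HC replicate 4, below the 37.4 to 38.2 of the others. Pld4 was at 18.3 units in CON replicate 1 and at 8.03 to 9.11 in the rest.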

How the results depend on the processing

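The 31 genes kept a positive median in the pooled contrast, in the HC contrast with CON, and in HC/HT set against CON or HT, under every setting tried. The number that passed moved more. Percentages in brackets are the share of all genes that passed as higher in the same setting. In the pooled contrast (15) it was 9 with median-of-ratios factors (1.10%), 7 without a filter (0.464%) and 27 with array weights (2.75%). It was 4 without the 3 least correlated libraries, HC/HT replicate 2 and HT replicates 2 and 3 (0.222%). With median-of-ratios factors and without HC/HT replicate 2 it was 6 (0.702%), and without HT replicate 2 it was 5 (0.562%). In HC against CON (0) it was 1 with a pseudocount of 4 (0.147%) and 2 without the sex term (0.207%). It was 4 without the 3 least correlated libraries (0.182%), 16 with array weights (1.55%) and 8 with only the groups compared (0.265%). With median-of-ratios factors and without HT replicate 3 it was 4 (0.268%). With females alone, where CON has 1 library, the median was 1.52. In HT against CON (0) it was 2 with only the groups compared (Lyz2 and Coro1a, lower), where 212 of 14083 genes passed as lower. In HC/HT against CON (0) it was 7 with array weights (0.866%) and 3 with only the groups compared (0.380%). With median-of-ratios factors and without HT replicate 3 it was 6 (0.582%). In HC/HT against HT (6) it was 2 with median-of-ratios factors (0.160%), quantile normalisation (0.213%) or plain eBayes (0.127%). It was 3 with totals that leave out the 4 most abundant rows (0.325%) and 19 with only the groups compared (1.05%). It was 0 without a filter (0.0191%) and without the 3 least correlated libraries (0.0135%), where the median was 0.75. With median-of-ratios factors it was 1 without HT replicate 3 (0.0669%) and 0 without HT replicate 2 (0.0334%) or HC/HT replicate 2 (0.0267%). The median of HT against CON (-0.73) was -0.0447 in females, 0.0588 without the 3 least correlated libraries, and 0.0575 with median-of-ratios factors and without HT replicate 3. That of the interaction (0.52) was -0.0945, -0.52 and -0.14 in the same 3 settings. The cause was not tested. The settings with median-of-ratios factors and an omission were chosen after seeing the data.

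Leaving out each library in turn gave 6 to 27 genes passed in the pooled contrast (median 1.21 to 1.77), 0 to 4 in HC against CON (0.88 to 1.31) and 0 to 3 in HC/HT against CON (0.71 to 1.10). It gave 0 to 25 in HC/HT against HT (1.25 to 2.14), and 0 in HC/HT against HC (-0.39 to -0.06), in HT against CON (-1.18 to -0.25) and in the interaction (-0.0152, without HT replicate 3, to 0.94). With the replicate number as a block 17 genes passed in the pooled contrast (1.89% of all genes as higher) and 7 in HC/HT against HT (0.773%). In HC/HT against CON and HC against CON 1 gene each passed (0.380% and 0.213%). Same-numbered libraries of different groups had a median correlation of 0.0715 in their deviations from group means (n = 21 pairs), from -0.125 to 0.275. Differently numbered ones had a median of -0.0702 (n = 63), from -0.264 to 0.376. Of 15 libraries 4 correlated best with their own number. These values do not settle whether the numbers pair the mice. The unknown depth, and less so the rounding in steps of 0.0979537 units, limit values near 1 unit. Among intact libraries the lowest values were 0.196 units in Fcgr1, 0.588 in Clec7a, 0.784 in Aif1 and 1.18 in Ncf4.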
